A study of Mus musculus and Rattus norvegicus with 18 samples.

Results

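Narciclasine added to TGF-β was compared with TGF-β alone in primary mouse tubular epithelial cells (TECs), the cells that line the kidney tubule. The comparison rests on 6 of the 18 libraries of the series, 3 with TGF-β and 3 with TGF-β and narciclasine, and it was read over every gene that passed a filter on low counts. TECs of both groups were held without serum for 6 h and then received 5 ng/ml TGF-β for 24 h. The narciclasine group was given 20 nM narciclasine 2 h before TGF-β. A further 3 libraries of control TECs are shown beside them and share the fit. The control cells were also held without serum for 6 h and were kept in medium only. No library had narciclasine without TGF-β, so the values describe narciclasine in cells that also had TGF-β. The labels name no genotype or age of the mice, no vehicle in the groups without narciclasine and no animal behind a replicate number. The design text calls the replicates biological, and p-values here rest on how far these libraries differ among themselves.

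Narciclasine, a plant alkaloid first known from daffodils, binds the large subunit of the ribosome and slows peptide elongation. TGF-β binds a pair of receptor kinases that phosphorylate SMAD2 and SMAD3, and in tubular cells it is known to stop proliferation and to raise matrix and protease genes. NF-κB is a family of transcription factors held in the cytoplasm by IκB proteins. When released it switches on chemokines, cytokines and its own inhibitors, many of which encode short-lived proteins and carry short-lived mRNAs.

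The 6 libraries held 17217290 to 22867693 counts, and the controls 16652016 to 25192716. No pair of libraries of a group agreed within counting error, with a chi-square per gene of 1.90 to 4.14 between pairs, so none was counted as a duplicate. As checks of the label, the 12 general epithelial markers, among them Cdh1, Krt8 and Krt18, were all tested and summed to 8603 to 9031 CPM with TGF-β alone and 9308 to 9542 CPM with narciclasine. CPM is a gene's counts for each 1000000 counts of its library, scaled by the trimmed mean of M-values (TMM). Of 19 markers of the proximal tubule, 13 were tested, and Slc34a1, Slc5a12, Slc22a6, Slc22a8, Slc13a3 and Miox were under the filter. The libraries thus carried epithelial RNA with few transcripts of several transporters that define the proximal tubule in the kidney.

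About as many genes changed as did not, mostly by small amounts. Of 13244 genes tested, 6921 changed (52.3%) at an adjusted p under 0.05, with 3550 higher with narciclasine (26.8%) and 3371 lower (25.5%). Every count of a gene group below is to be read against these shares. Among the genes that changed, 5137 (74.2%) had a log2 change under 0.5 in size. The tail was longer on the lower side. At least 2-fold falls were seen in 385 genes (2.91%) and at least 2-fold rises in 199 genes (1.5%), and 83 genes had a log2 change of −2 or lower against 6 of 2 or higher. The median log2 change over all genes tested was 0.002. TMM scaling places the bulk of genes near 0, so this median and the balance of rises and falls depend on it. With libraries scaled by total counts, 4033 genes were higher and 2974 lower. A shift in total RNA per cell would not show in these values. P-values here and below are from the edgeR quasi-likelihood test with Benjamini-Hochberg adjustment over the 13244 genes.

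**Figure D1:**
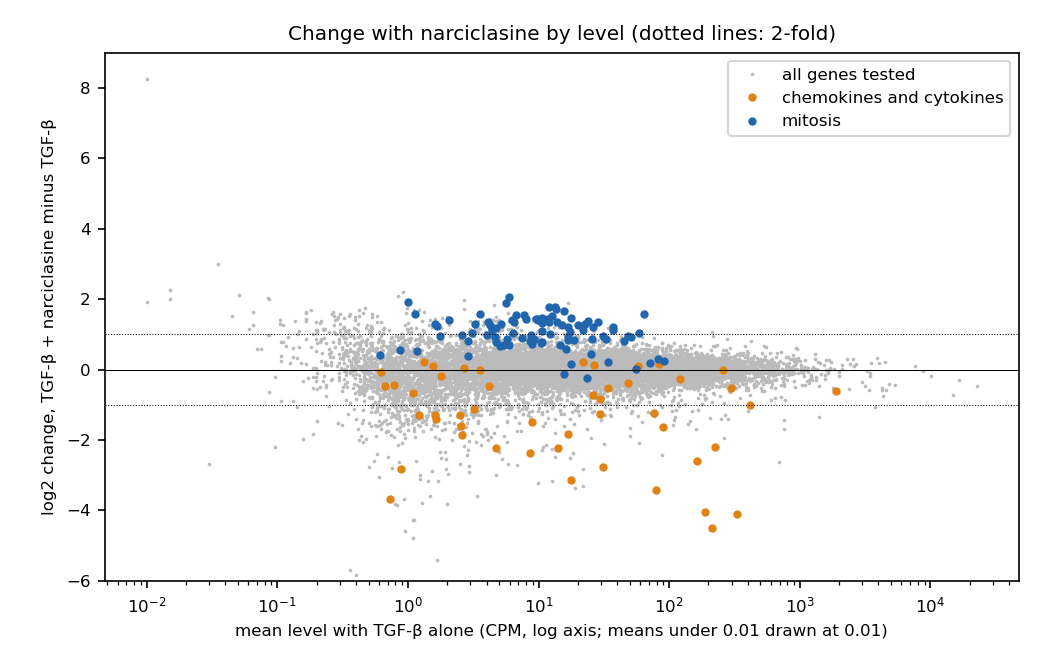
Log2 change with narciclasine (TGF-β with narciclasine minus TGF-β alone, y axis) against the mean level with TGF-β alone in CPM (log x axis) for 13244 genes, one point per gene. Chemokines and cytokines (orange) reach down to −4.50 and genes of mitosis (blue) lie mostly above 0, while the middle of all genes (grey) sits close to 0, with quartiles at −0.21 and 0.20.

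Genes of at least 5 CPM were ranked without clone-style symbols (Gm with digits, Rik or accession-like) or symbols with more than 1 entry. Chemokines and cytokines held the 4 deepest falls among them. Macrophages make many of these factors as well, and 19 leukocyte markers summed to 96.7 to 102.7 CPM with TGF-β alone and 39.1 to 39.6 CPM with narciclasine. The part of leukocyte RNA in the falls was not tested. Of 22 chemokine genes tested, 15 fell and 1 rose, 14 of the 15 by at least 2-fold, and the median log2 change of the group was −1.39. Of 26 cytokine genes, 19 fell and 1 rose, with a median of −0.78. Cxcl2 (ENSMUSG00000058427), which draws neutrophils, was at 15.5, 15.7 and 16.7 CPM in controls, 210.2, 204.8 and 221.4 CPM with TGF-β alone and 10.5, 8.64 and 8.87 CPM with narciclasine added. The 3 libraries with narciclasine lay below all 3 control libraries as well (log2 change −4.50, SE 0.0555, edgeR adjusted p = 1.32e-40, a 22.5-fold fall). Its neighbour Cxcl1, a neutrophil chemokine too, was at 35.7, 39.6 and 35.4 CPM in controls, 329.2, 307.8 and 362.6 CPM with TGF-β alone and 20.0, 17.4 and 21.2 CPM with narciclasine added (log2 change −4.09, SE 0.0894, edgeR adjusted p = 1.05e-09). Ccl2, which draws monocytes, stood at 17.7, 19.5 and 19 CPM in controls, 222.7, 216.2 and 236.1 CPM with TGF-β alone and 52.2, 46.6 and 48.4 CPM with narciclasine added, so narciclasine left it above the control level (log2 change −2.20, SE 0.0418, edgeR adjusted p = 1.65e-33).

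Csf2, the growth factor GM-CSF for myeloid cells, was at 2.45, 3.08 and 2.82 CPM in controls, 185.3, 183.0 and 196.2 CPM with TGF-β alone and 11.9, 11.1 and 11.3 CPM with narciclasine added (log2 change −4.04, SE 0.053, edgeR adjusted p = 8.8e-40). No library of one group reached the range of the other, and the level with narciclasine stayed above that of control cells. Tnf, the cytokine tumour necrosis factor, was at 4.95, 5.22 and 5.69 CPM in controls, 76.6, 86.1 and 75.3 CPM with TGF-β alone and 7.42, 7.56 and 7.11 CPM with narciclasine added (log2 change −3.42, SE 0.0708, edgeR adjusted p = 7.58e-33). Il1b and Il6, both cytokines of acute inflammation, fell as well. Il1b measured 13.2, 13.5 and 15.7 CPM with TGF-β alone and 2.86, 3.24 and 3.03 CPM with narciclasine added (log2 change −2.22, SE 0.144, edgeR adjusted p = 5.7e-16). Il6 measured 4.66, 4.53 and 4.99 CPM with TGF-β alone and 1.07, 1.03 and 0.937 CPM with narciclasine added (log2 change −2.22, SE 0.228, edgeR adjusted p = 1.01e-10). Ccl7, another monocyte chemokine, fell from 17.6 ± 1.19 to 2.0 ± 0.307 CPM (SD, n = 3 per group) (log2 change −3.13, SE 0.143, edgeR adjusted p = 3.87e-21).

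Some chemokines fell that TGF-β had not raised. Cxcl5, a neutrophil chemokine of epithelia, was at 31.1, 33 and 30.5 CPM in controls, 29.5, 30.2 and 34 CPM with TGF-β alone and 5.14, 3.67 and 4.9 CPM with narciclasine added. The control and TGF-β libraries overlapped and all 3 libraries with narciclasine lay far below both (log2 change −2.76, SE 0.0941, edgeR adjusted p = 2.61e-25). Ccl20, which draws cells that carry CCR6, was at 184.2, 187.1 and 181.6 CPM in controls, 163.7, 154.4 and 170.8 CPM with TGF-β alone and 28, 25.4 and 27.8 CPM with narciclasine added (log2 change −2.59, SE 0.0438, edgeR adjusted p = 8.51e-36). Its level with TGF-β was already a little below control, and with narciclasine it was lower by a factor of 6.02. The contrast of TGF-β with control gave a log2 change of −0.015 for Cxcl5 and −0.18 for Ccl20. It shares the TGF-β libraries with the narciclasine contrast, so the values are set side by side only.

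**Figure D2:**
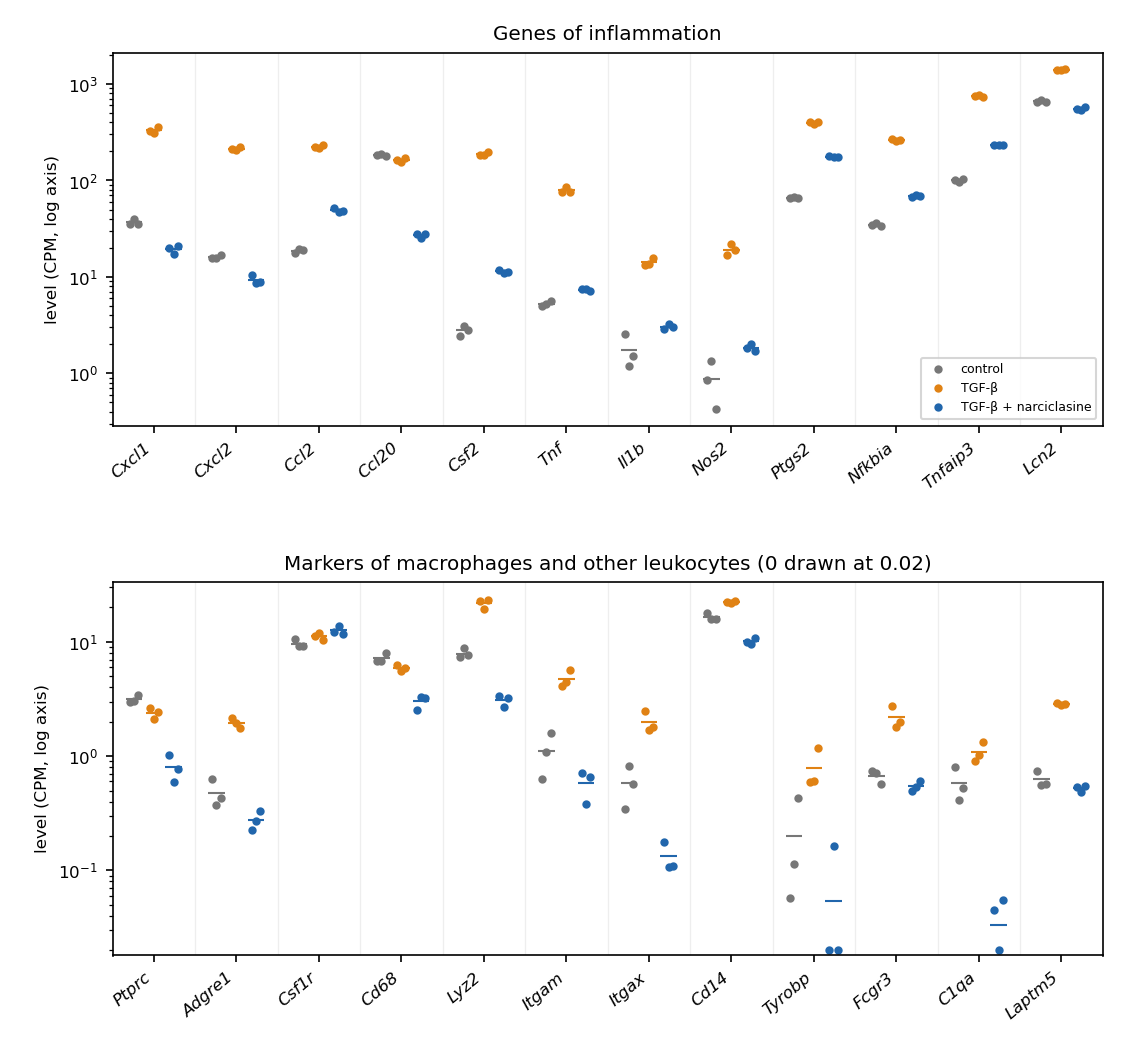
Levels of 12 genes of inflammation (top) and 12 markers of macrophages and other leukocytes (bottom) in each library, in CPM on a log axis. Each point is 1 library, with control in grey, TGF-β in orange and TGF-β with narciclasine in blue, and a small bar marks the group mean. For each inflammatory gene shown the blue points lie below all orange points, and the same holds for each marker shown other than Csf1r. Libraries at 0 are drawn at the lower edge.

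The promoters of the 3 genes with the deepest falls are printed because the members moved together and the region just before the start is where NF-κB sites of such genes are known. The sequences are those of RefSeq on GRCm38.p6 and run from 250 bases before the start to 50 bases after it, 5′ to 3′ on the strand of the gene. Capitals mark matches on either strand to 6 motifs, which are GGNNNTTCC for NF-κB, TGANTCA for AP-1, TTTGAA for the cell cycle homology region (CHR), TTTNNCGC for E2F, CCAAT for the CCAAT box and TGATGNAA for ATF4. Cxcl2 lies at chr5:90903649-90903948 on the plus strand, Cxcl1 at chr5:90890995-90891294 on the plus strand and Csf2 at chr11:54249850-54250149 on the minus strand.
Cxcl2: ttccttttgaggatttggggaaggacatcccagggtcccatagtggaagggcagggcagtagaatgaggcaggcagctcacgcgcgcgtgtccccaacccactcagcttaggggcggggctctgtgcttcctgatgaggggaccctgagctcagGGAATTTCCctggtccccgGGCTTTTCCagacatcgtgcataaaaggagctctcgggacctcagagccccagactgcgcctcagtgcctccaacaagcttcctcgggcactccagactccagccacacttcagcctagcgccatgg
Cxcl1: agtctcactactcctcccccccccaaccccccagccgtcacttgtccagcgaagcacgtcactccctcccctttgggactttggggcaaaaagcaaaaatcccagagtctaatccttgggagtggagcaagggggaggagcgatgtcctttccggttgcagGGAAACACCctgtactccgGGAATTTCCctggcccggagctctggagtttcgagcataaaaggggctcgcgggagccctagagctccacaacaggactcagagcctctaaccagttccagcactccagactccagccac
Csf2: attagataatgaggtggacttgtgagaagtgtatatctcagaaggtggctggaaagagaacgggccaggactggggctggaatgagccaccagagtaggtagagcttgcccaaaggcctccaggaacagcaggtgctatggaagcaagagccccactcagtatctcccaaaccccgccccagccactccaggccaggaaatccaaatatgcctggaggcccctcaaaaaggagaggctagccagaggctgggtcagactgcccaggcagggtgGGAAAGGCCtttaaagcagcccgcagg
In Cxcl2 and Cxcl1 the capitals are 2 NF-κB matches each, all of them within 100 bases before the RefSeq start. In Csf2 the single match to the NF-κB letters lies after the RefSeq start. The GENCODE annotation starts Csf2 further downstream, at base 54249667, so the whole printed window of Csf2 lies before that start. A match is a description of letters and not of a bound site. Promoters were found for 10452 of the 13226 tested genes with a symbol of their own. The NF-κB letters were in 47.1% of 17 promoters of 16 chemokine genes and 42.1% of 19 promoters of 15 cytokine genes, against 21.5% of 13447 promoters of all tested genes. In the list of nitric oxide and eicosanoid synthesis the share was 16% of 25 promoters. The AP-1 letters were in 23.5% of the chemokine, 26.3% of the cytokine, 8% of the nitric oxide and eicosanoid and 5.37% of all promoters. Among genes at least 2-fold lower the shares were 24.9% for NF-κB and 13.3% for AP-1.

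More genes of the NF-κB pathway fell than rose. Of 35 tested, 19 fell, 2 rose and 14 were not called, with a median of −0.20. Nfkbia, which encodes the inhibitor IκBα, was at 34.8, 36.2 and 33.9 CPM in controls, 270.1, 258.6 and 265.6 CPM with TGF-β alone and 67.4, 70.1 and 69.5 CPM with narciclasine added (log2 change −1.94, SE 0.0344, edgeR adjusted p = 3.45e-35). Tnfaip3, the ubiquitin-editing enzyme A20 that damps NF-κB signalling, was at 100.6, 96.9 and 104.0 CPM in controls, 751.1, 774.9 and 733.8 CPM with TGF-β alone and 232.2, 232.8 and 232.9 CPM with narciclasine added (log2 change −1.70, SE 0.0269, edgeR adjusted p = 9.23e-37). Nfkbiz, which encodes the nuclear cofactor IκBζ, was at 101.6, 99.5 and 100.2 CPM in controls, 691.6, 711.4 and 682.1 CPM with TGF-β alone and 110.7, 113.1 and 115.5 CPM with narciclasine added (log2 change −2.62, SE 0.0281, edgeR adjusted p = 1.27e-42). In all of these the 3 libraries with narciclasine stood between the control and the TGF-β libraries. Nfkbid, encoding another nuclear IκB protein, fell by 2.36 on the log2 scale and Map3k8, the kinase TPL2, by 2.02. Rela, the p65 subunit, measured 136.8, 144.6 and 134.5 CPM with TGF-β alone and 138.3, 146.8 and 140.2 CPM with narciclasine added, with overlapping ranges (log2 change 0.033, SE 0.035, edgeR adjusted p = 0.444).

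Other inflammatory outputs fell with them. Of 30 genes of nitric oxide and eicosanoid synthesis, 15 fell and 2 rose, with a median of −0.32. Nos2, the inducible nitric oxide synthase, was at 0.854, 1.35 and 0.43 CPM in controls, 16.9, 21.8 and 18.8 CPM with TGF-β alone and 1.83, 2.0 and 1.71 CPM with narciclasine added (log2 change −3.36, SE 0.16, edgeR adjusted p = 1.36e-17). Ptgs2, the inducible cyclooxygenase COX-2, was at 66.5, 67.4 and 65.4 CPM in controls, 402.3, 386.3 and 405.7 CPM with TGF-β alone and 179.0, 175.6 and 175.3 CPM with narciclasine added (log2 change −1.17, SE 0.0282, edgeR adjusted p = 1.51e-30), so it stayed well above control. Of 21 complement and acute phase genes tested 17 fell and 1 rose, 13 of the falls by at least 2-fold, at a median of −1.30. C3, the central complement component, was at 72.7, 70.9 and 72 CPM in controls, 91.8, 92.9 and 92.9 CPM with TGF-β alone and 30.2, 29.2 and 29 CPM with narciclasine added (log2 change −1.65, SE 0.0451, edgeR adjusted p = 1.18e-28). Lcn2, the secreted iron-siderophore binder NGAL that serves as a marker of tubular injury, was at 656.7, 679.5 and 653.7 CPM in controls, 1400.5, 1386 and 1417 CPM with TGF-β alone and 549.5, 540.0 and 579.0 CPM with narciclasine added (log2 change −1.33, SE 0.0243, edgeR adjusted p = 8.96e-35). Both ended below their control libraries. Steap4, a metalloreductase, Serping1, the C1 inhibitor, and Lbp, which binds lipopolysaccharide, fell by 2.51, 2.33 and 2.27 on the log2 scale.

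Genes downstream of interferon were mixed. Of 41 interferon-stimulated genes 12 fell, 5 rose and 24 were not called, a share of 41.5% changed beside 52.3% over all genes. Irf1, a transcription factor that interferon and NF-κB both induce, was at 135.8, 141.4 and 138.5 CPM with TGF-β alone and 46.7, 48.1 and 48.2 CPM with narciclasine added (log2 change −1.54, SE 0.0407, edgeR adjusted p = 4.15e-29). Of 27 antigen presentation genes 12 fell and 2 rose. B2m, the light chain of MHC class I, fell by 0.53 on the log2 scale, and Cd74, the invariant chain of MHC class II, by 1.96 at a mean of 1.73 CPM with TGF-β. H2-Q6 rose by 1.61, but it has near-identical MHC relatives among which reads may be split. Among 41 cytokine receptors 18 fell and 5 rose. Tnfrsf11b, the decoy receptor osteoprotegerin, fell from 72.2 ± 1.99 to 30.8 ± 2.31 CPM (SD, n = 3 per group) (log2 change −1.23, SE 0.0538, edgeR adjusted p = 8.36e-22). Il6st, the shared receptor chain gp130, rose by 0.24. Among 30 pattern recognition genes 16 fell and 3 rose. Tlr2, which senses bacterial lipopeptides, fell by 0.56, while Cgas, the sensor of cytosolic DNA, rose by 1.38. The adaptor Myd88 fell by 0.22 (edgeR adjusted p = 0.0217), and was not called without TGF-β replicate 1 (−0.20, edgeR adjusted p = 0.0701) or narciclasine replicate 3 (−0.18, edgeR adjusted p = 0.096).

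Markers of macrophages and other leukocytes fell beside these groups. Of 27 such markers, 19 were tested, and 17 of these fell while Csf1r and Ly6g were not called, with a median of −2.35. Another 8 markers, among them Fcgr1, Mrc1, Cx3cr1, Ccr2, S100a8, S100a9 and Cd3e, were under the filter. The summed level of the 19 was 58.4 to 60.3 CPM in control libraries, 96.7 to 102.7 CPM with TGF-β and 39.1 to 39.6 CPM with narciclasine. Within that sum Cd14, also one of the pattern recognition genes, had a mean of 22.4 CPM with TGF-β and 10.1 CPM with narciclasine. Lyz2, lysozyme of myeloid cells, was at 7.34, 8.76 and 7.6 CPM in controls, 23, 19.3 and 23.3 CPM with TGF-β alone and 3.35, 2.7 and 3.2 CPM with narciclasine added (log2 change −2.82, SE 0.117, edgeR adjusted p = 1.41e-22). Adgre1, the macrophage antigen F4/80, had 2.15, 1.94 and 1.77 CPM with TGF-β and 0.224, 0.27 and 0.331 CPM with narciclasine. C1qa, a chain of complement C1q that macrophages make, had 0.913, 1.03 and 1.32 CPM with TGF-β and 0.0447, 0 and 0.0551 CPM with narciclasine. Tyrobp, a myeloid signalling adaptor, had 0.594, 0.605 and 1.18 CPM with TGF-β and 0, 0.162 and 0 CPM with narciclasine. The macrophage-type genes Mmp12 (a 9.94-fold fall), Clec7a (5.81-fold) and Ctss (5.79-fold) and the activation marker Cd83 (9.25-fold) moved the same way. In bulk libraries fewer cells of a type and less RNA per cell cannot be told apart. Macrophages also make Nos2, complement and many of the matrix proteases, and the part of leukocyte RNA in those falls was not tested either. Leukocyte genes aside, the fibroblast markers Pdgfra, Pdgfrb and others were 5 lower and 2 not called of 7 tested, with sums of 141.8 to 150.6 CPM with TGF-β and 122.2 to 130.1 CPM with narciclasine. The fibroblast count was 3 lower with DESeq2 or without any 1 of TGF-β replicate 2, narciclasine replicates 1 and 3 and control replicate 1. Dcn, Lum, Tcf21, Meox2, Ogn, Scara5 and Gli1 were under the filter. Endothelial markers gave 5 lower and 2 higher of 10 tested, podocyte markers 2 lower and 3 higher of 7, and markers of the distal tubule and collecting duct 5 lower of 7 (3 with DESeq2 or without TGF-β replicate 1, TGF-β replicate 2 or narciclasine replicate 3).

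Genes of the division cycle rose together, the other large movement in these cells. Of 94 genes of mitosis 86 rose and 1 fell, 52 of them by at least 2-fold, with a median log2 change of 1.09. Of 64 genes of DNA replication 55 rose and 9 were not called, 11 rising by at least 2-fold, with a median of 0.58. Of 60 DNA repair genes 44 rose and 1 fell, at a median of 0.39. TGF-β alone had lowered the same lists by medians of −2.32, −1.60 and −0.86 against control, a contrast that uses the same TGF-β libraries.

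Mki67, the proliferation antigen Ki-67, was at 427.7, 430.3 and 439.6 CPM in controls, 65.7, 62.6 and 63.5 CPM with TGF-β alone and 191.5, 196.6 and 181.0 CPM with narciclasine added (log2 change 1.57, SE 0.0341, edgeR adjusted p = 4.54e-32). Every library with narciclasine lay above all with TGF-β alone and below all control libraries, a 2.96-fold rise that did not reach the control level. Kif18b, a kinesin that shortens spindle microtubules, was at 41.1, 39.5 and 42.6 CPM in controls, 5.98, 6.17 and 5.72 CPM with TGF-β alone and 23.4, 26.4 and 24.4 CPM with narciclasine added (log2 change 2.05, SE 0.0843, edgeR adjusted p = 1.19e-22). Its rise was the largest among the ranked genes of at least 5 CPM. Ndc80, of the outer kinetochore, was at 42.9, 46.9 and 42.4 CPM in controls, 5.85, 5.08 and 5.99 CPM with TGF-β alone and 19.3, 20.9 and 23.1 CPM with narciclasine added (log2 change 1.89, SE 0.0931, edgeR adjusted p = 4.55e-20). Cdc20, which activates the anaphase-promoting complex, was at 100.8, 95.4 and 95 CPM in controls, 12.3, 12.8 and 15 CPM with TGF-β alone and 45.4, 45.8 and 46.7 CPM with narciclasine added (log2 change 1.78, SE 0.0635, edgeR adjusted p = 1.22e-24). Cdk1, the mitotic kinase, moved less, at 20.0, 16.9 and 18.9 CPM with TGF-β alone and 35.5, 30.9 and 34.1 CPM with narciclasine added (log2 change 0.85, SE 0.0645, edgeR adjusted p = 2.83e-14), and its partner Ccnb1, cyclin B1, rose by 1.22. Plk1, Ttk, Kif2c, Knl1 and Dlgap5, all of spindle and kinetochore assembly, rose by 1.66, 1.59, 1.54, 1.56 and 1.78 on the log2 scale.

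Within replication the size of the rise varied from gene to gene. Prim1, the catalytic primase subunit, was at 27.1, 27.1 and 28.6 CPM in controls, 4.11, 4.6 and 4.99 CPM with TGF-β alone and 15.7, 15.9 and 17 CPM with narciclasine added (log2 change 1.83, SE 0.0987, edgeR adjusted p = 8.54e-19). Mcm2, a subunit of the replicative helicase, was at 107.9, 111.5 and 109.8 CPM in controls, 35.3, 34.7 and 35.7 CPM with TGF-β alone and 63, 62.1 and 65.5 CPM with narciclasine added (log2 change 0.85, SE 0.0456, edgeR adjusted p = 6.85e-19). Pcna, the sliding clamp, was at 134.1, 142.3 and 131.4 CPM in controls, 66, 59.1 and 62.7 CPM with TGF-β alone and 69.7, 68.4 and 69.3 CPM with narciclasine added and rose by 0.14 (SE 0.0436, edgeR adjusted p = 0.00696). Without TGF-β replicate 2 that change was 0.09 and not called (edgeR adjusted p = 0.0903). Clspn, the checkpoint adaptor claspin, Mcm10, which helps to start unwinding, and Pola1, of DNA polymerase α, rose by 1.62, 1.41 and 1.21. In repair, Brca1 rose by 1.06, the exonuclease Exo1 by 1.19 and the checkpoint kinase Chek1 by 1.39.

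Regulators of the cycle split. Among 49 of them 22 rose and 9 fell, with a median of 0.14. E2f1, a transcription factor that drives entry into S phase, measured 3.01, 3.33 and 3.04 CPM with TGF-β alone and 4.56, 5.62 and 5.79 CPM with narciclasine added (log2 change 0.76, SE 0.146, edgeR adjusted p = 2.83e-05). Mybl2, which acts at mitotic promoters, measured 7.99, 9.13 and 7.26 CPM with TGF-β alone and 23.2, 23.8 and 22.8 CPM with narciclasine added (log2 change 1.53, SE 0.0793, edgeR adjusted p = 2.27e-19). E2f7, a repressor among the E2F factors, rose by 1.41 and Fbxo5, an inhibitor of the anaphase-promoting complex, by 1.71. Ccnd1, cyclin D1 of the G1 phase, went the other way, at 1214, 1193 and 1187 CPM in controls, 654.6, 632.8 and 652.8 CPM with TGF-β alone and 599.0, 588.9 and 600.2 CPM with narciclasine added (log2 change −0.12, SE 0.0225, edgeR adjusted p = 2.59e-05). Its level was lower in each of the 3 libraries with narciclasine than in any with TGF-β alone. The inhibitor genes Cdkn1a (p21) and Cdkn2a fell by 0.22 and 1.13, and Myc rose by 0.20.

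**Figure D3:**
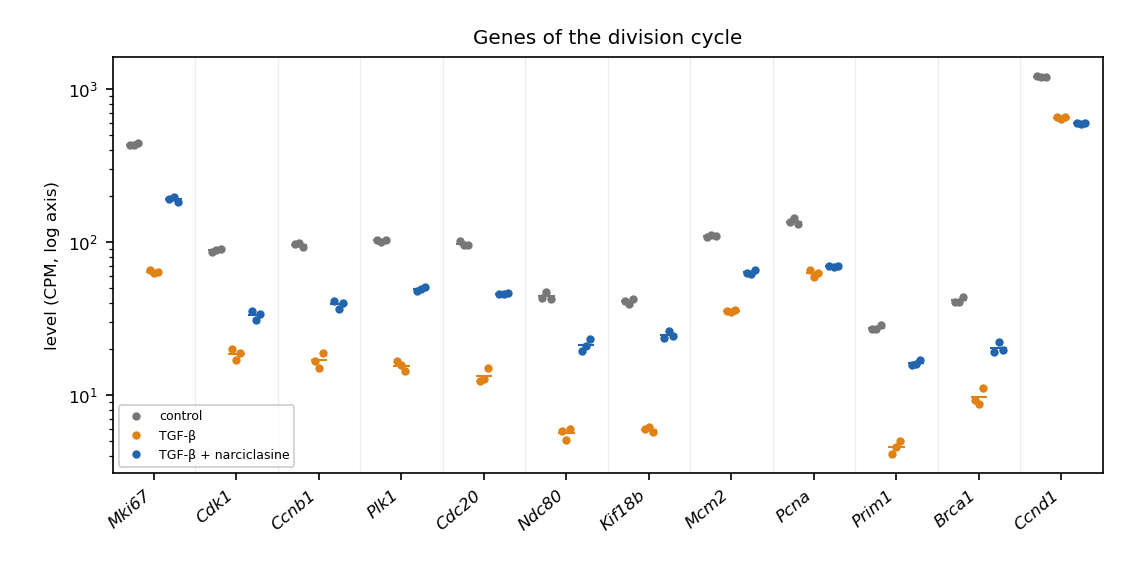
Levels of 12 genes of the division cycle in each library, in CPM on a log axis, with 1 point per library (control grey, TGF-β orange, TGF-β with narciclasine blue) and a bar at the group mean. For 11 of the 12 the blue points lie between the orange and the grey ones, and for Ccnd1 they lie below both.

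Promoters of 3 replication and mitosis genes among the largest rises at 5 CPM or more are shown for the motifs known from cell cycle genes, with capitals as before. Kif18b lies at chr11:102925075-102925374 on the minus strand, Ndc80 at chr17:71526808-71527107 on the minus strand and Prim1 at chr10:128014965-128015264 on the plus strand.
Kif18b: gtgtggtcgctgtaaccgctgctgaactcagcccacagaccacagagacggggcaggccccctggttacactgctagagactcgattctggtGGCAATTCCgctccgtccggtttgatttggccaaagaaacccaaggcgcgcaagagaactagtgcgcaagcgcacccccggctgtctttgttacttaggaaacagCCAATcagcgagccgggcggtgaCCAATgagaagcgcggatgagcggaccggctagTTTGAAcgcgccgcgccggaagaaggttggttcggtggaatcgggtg
Ndc80: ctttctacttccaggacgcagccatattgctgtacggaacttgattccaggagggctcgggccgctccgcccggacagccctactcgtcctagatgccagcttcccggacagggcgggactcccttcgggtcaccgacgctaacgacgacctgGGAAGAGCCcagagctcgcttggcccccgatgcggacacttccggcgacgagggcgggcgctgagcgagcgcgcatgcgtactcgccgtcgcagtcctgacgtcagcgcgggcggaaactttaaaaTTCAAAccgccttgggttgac
Prim1: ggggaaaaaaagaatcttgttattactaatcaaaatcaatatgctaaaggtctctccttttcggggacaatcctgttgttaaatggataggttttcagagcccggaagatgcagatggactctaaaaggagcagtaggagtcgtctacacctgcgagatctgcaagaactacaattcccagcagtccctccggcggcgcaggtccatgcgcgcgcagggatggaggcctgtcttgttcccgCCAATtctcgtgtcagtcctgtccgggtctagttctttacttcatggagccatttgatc
Kif18b holds 2 CCAAT boxes and 1 CHR match, the last in the capitals nearest its 3′ end, besides 1 match to the NF-κB letters. Ndc80 holds 1 CHR match, on the opposite strand, and 1 match to the NF-κB letters. Prim1 holds 1 CCAAT box. The CHR letters were in 63.6% of 88 promoters of mitosis genes, 15.6% of 64 promoters of replication genes and 12% of the promoters of all tested genes. For E2F the shares were 17%, 37.5% and 7.91%, and for the CCAAT box 70.5%, 54.7% and 37.3%. Promoters of genes at least 2-fold higher held the CHR letters in 37.8% and the E2F letters in 14% of 172 promoters, a set that includes many of the same cycle genes.

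The genes that build ribosomes rose, while those of the ribosome's own proteins moved little. Of 91 ribosome biogenesis genes 77 rose and 4 fell, none by 2-fold, with a median of 0.32. Rrp12, which helps to export pre-ribosomes, was at 54.7, 50.4 and 51.5 CPM in controls, 31.5, 32.9 and 32.5 CPM with TGF-β alone and 53.8, 58.1 and 55.6 CPM with narciclasine added (log2 change 0.79, SE 0.0517, edgeR adjusted p = 3.11e-16). Nop2, an rRNA methyltransferase, was at 99.2, 98.9 and 104.9 CPM in controls, 68.5, 68.6 and 65 CPM with TGF-β alone and 111.6, 107.8 and 111.3 CPM with narciclasine added (log2 change 0.71, SE 0.0388, edgeR adjusted p = 1.1e-18). Mybbp1a, a nucleolar protein, rose by 0.70 and Polr1b, a subunit of RNA polymerase I, by 0.54. Both Rrp12 and Nop2 with narciclasine overlapped or exceeded their control range. The nucleolar methyltransferase Fbl rose by 0.32, and Npm1, nucleophosmin, was not called (log2 change 0.013, SE 0.037, edgeR adjusted p = 0.796). Of 80 cytosolic ribosomal protein genes 13 rose and 7 fell, a share of 25% changed beside 52.3% over all genes, at a median of 0.032. The count of rises was 21 with libraries scaled by total counts and 7 or 8 without TGF-β replicate 1, TGF-β replicate 2 or narciclasine replicate 3. Rpl3, which borders the peptidyl transferase centre, measured 822.6, 825.5 and 796.4 CPM with TGF-β alone and 791.8, 811.6 and 815.7 CPM with narciclasine added with overlapping ranges (log2 change −0.015, SE 0.0225, edgeR adjusted p = 0.598). Rps2 rose by 0.30 and Rps24 fell by 0.35. Ribosomal protein genes have many processed pseudogenes, so small differences among them are uncertain.

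Of 61 translation factors 33 rose and 10 fell. Eif6, which keeps the large subunit from joining too early, measured 130.4, 130.8 and 126.6 CPM with TGF-β alone and 187.9, 192.3 and 204.0 CPM with narciclasine added (log2 change 0.59, SE 0.0325, edgeR adjusted p = 1.44e-18). Eif3b and the eIF2B subunits Eif2b4 and Eif2b3 rose by 0.45, 0.54 and 0.45. Eef1a1, an elongation factor that delivers aminoacyl-tRNA, measured 10029, 10132 and 10118 CPM with TGF-β alone and 8918, 8834 and 8891 CPM with narciclasine added (log2 change −0.19, SE 0.0179, edgeR adjusted p = 2.01e-11), and Eef2, another that moves the ribosome along the mRNA, fell by 0.17. Among 39 tRNA synthetase genes 24 rose and 4 fell, at a median of 0.15. Sars2, the mitochondrial seryl-tRNA synthetase, rose by 0.92 and the scaffold Aimp2 by 0.63.

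Genes of the ATF4 response, which rises when translation initiation is restrained through eIF2α, were lower on balance. Of 39 tested 27 fell and 2 rose, with a median of −0.33. Atf4 itself measured 354.2, 344.4 and 353.0 CPM with TGF-β alone and 323.7, 307.8 and 330.6 CPM with narciclasine added (log2 change −0.13, SE 0.0289, edgeR adjusted p = 0.000266). Asns, asparagine synthetase and a standard target, measured 230.7, 232.2 and 232.3 CPM with TGF-β alone and 233.5, 228.1 and 229.3 CPM with narciclasine added with overlapping ranges (log2 change −0.008, SE 0.0275, edgeR adjusted p = 0.824). Cebpb, a bZIP transcription factor of inflammation as well as of stress, was at 32, 31.5 and 32.8 CPM in controls, 37, 36 and 33.8 CPM with TGF-β alone and 13.3, 15 and 14.8 CPM with narciclasine added (log2 change −1.31, SE 0.0669, edgeR adjusted p = 1.22e-19), below its control level. Slc7a3, a transporter of cationic amino acids, Fgf21, a secreted stress hormone, and Aldh1l2, of mitochondrial folate metabolism, fell by 1.18, 1.11 and 0.91. Among 43 ER chaperone and unfolded protein response genes 18 fell and 4 rose. Hspa5, the chaperone BiP, fell by 0.064, which was not called with libraries scaled by total counts (log2 change −0.03, edgeR adjusted p = 0.174). Herpud1 fell by 0.44 and Atf6 by 0.45, and Xbp1 rose by 0.19. In contrast 27 of 45 heat shock genes rose and 7 fell, at a median of 0.17. Hspb1, the small heat shock protein HSP27, was at 321.8, 308.9 and 317.5 CPM in controls, 219.3, 225.8 and 205.7 CPM with TGF-β alone and 388.5, 436.6 and 446.5 CPM with narciclasine added (log2 change 0.97, SE 0.056, edgeR adjusted p = 7.21e-07), and Hsp90aa1 rose by 0.23. Hspa1b rose by 0.55, although its reads can be split with its near-identical copy Hspa1a.

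More genes of cell death and of p53 fell than rose. Of 25 members of the BCL2 family 16 fell and 5 rose, at a median of −0.27. The pro-death members Bmf, Bcl2l11 (BIM) and Bbc3 (PUMA) were all lower. Bmf was at 6.94, 6.95 and 8.22 CPM in controls, 49.3, 45.8 and 44.8 CPM with TGF-β alone and 23.4, 20.1 and 22.8 CPM with narciclasine added (log2 change −1.08, SE 0.0646, edgeR adjusted p = 2.25e-17). Bcl2l11 was at 33.6, 30.5 and 32.1 CPM in controls, 85.6, 87.3 and 84.1 CPM with TGF-β alone and 42.2, 41.8 and 44.7 CPM with narciclasine added (log2 change −1.0, SE 0.0468, edgeR adjusted p = 8.56e-21), and Bbc3 fell by 0.66. Mcl1, a short-lived protector, rose by 0.13, and Bcl2l1 (BCL-XL) fell by 0.11. Of 34 p53 targets 15 fell, 5 rose and 14 were not called, at a median of only −0.085. Their log2 changes ran from −1.28 to 0.47. Btg2, an antiproliferative gene, measured 270.7, 258.3 and 273.7 CPM with TGF-β alone and 106.9, 111.4 and 111.9 CPM with narciclasine added (log2 change −1.28, SE 0.0318, edgeR adjusted p = 4.47e-30), Gdf15, a stress cytokine, fell by 0.90, and Mdm2, the ligase that removes p53, fell by 0.35.

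The immediate early genes did not move as one. Of 37 tested 22 fell and 8 rose. Fos was at 4.61, 4.1 and 4.54 CPM in controls, 9.41, 12.2 and 11 CPM with TGF-β alone and 2.19, 2.92 and 1.93 CPM with narciclasine added (log2 change −2.21, SE 0.149, edgeR adjusted p = 7.5e-16). Egr1, a zinc finger factor induced by growth factors, was at 26.9, 25.7 and 27.3 CPM in controls, 52.1, 50.3 and 47.2 CPM with TGF-β alone and 13.5, 13.2 and 14.1 CPM with narciclasine added (log2 change −1.87, SE 0.0635, edgeR adjusted p = 2.23e-25). Both ended below control. Ier3 measured 763.9, 756.1 and 740.4 CPM with TGF-β alone and 278.4, 279.3 and 281.0 CPM with narciclasine added (log2 change −1.43, SE 0.0247, edgeR adjusted p = 1.51e-35), and Zfp36, which destabilises mRNAs with AU-rich elements, measured 62.5, 61.6 and 60.7 CPM with TGF-β alone and 21.5, 21.3 and 22.6 CPM with narciclasine added (log2 change −1.50, SE 0.0537, edgeR adjusted p = 1.25e-24). Jun rose, from 101.4 ± 2.89 to 125.2 ± 4.22 CPM (SD, n = 3 per group) (log2 change 0.31, SE 0.0364, edgeR adjusted p = 3.57e-09). Zc3h12a, the endonuclease Regnase-1 that degrades cytokine mRNAs, was at 19.1, 17.7 and 18.3 CPM in controls, 160.5, 169.0 and 154.1 CPM with TGF-β alone and 48.7, 50.8 and 49.3 CPM with narciclasine added (log2 change −1.70, SE 0.0418, edgeR adjusted p = 3.49e-30), so genes for both of these brakes on cytokine mRNAs were lower along with the cytokine genes. Over the 53 genes of mRNA decay, 22 rose and 11 fell, and the exosome subunits Exosc2 and Exosc10 rose by 0.78 and 0.73. Among 25 genes of ERK feedback 10 fell and 7 rose. Dusp6 fell by 0.23, whereas Dusp10, a phosphatase of p38 and JNK, rose from 42.9 ± 2.06 to 82.4 ± 2.08 CPM (SD, n = 3 per group) (log2 change 0.94, SE 0.0447, edgeR adjusted p = 1.36e-20). Egfr, the EGF receptor, was at 393.0, 398.6 and 397.2 CPM in controls, 396.7, 402.0 and 402.7 CPM with TGF-β alone and 567.7, 567.5 and 541.9 CPM with narciclasine added (log2 change 0.48, SE 0.0243, edgeR adjusted p = 9.47e-20), above both other groups, while its ligand Hbegf fell by 0.28.

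Both groups received TGF-β, and its own targets differed between them in part. Of 43 SMAD target genes 28 fell and 7 rose, 4 of the falls by at least 2-fold, with a median of −0.29. Ccn2, connective tissue growth factor and a standard target, was at 1275, 1298 and 1268 CPM in controls, 2446, 2397 and 2446 CPM with TGF-β alone and 2704, 2626 and 2758 CPM with narciclasine added and rose by 0.15 (SE 0.0208, edgeR adjusted p = 9.01e-08). Smad7, the inhibitory SMAD, measured 97.8, 92.8 and 93.7 CPM with TGF-β alone and 72.6, 75.5 and 78 CPM with narciclasine added (log2 change −0.33, SE 0.0412, edgeR adjusted p = 7.96e-09). Among targets with larger falls were Tgfbi, a secreted adhesion protein, with −1.82, Mmp9 with −1.42, Col1a1 with −1.39 and Mmp2 with −1.07. In the pathway itself 21 of 55 genes fell and 13 rose. Tgfb1, the ligand gene, was at 36.7, 33.1 and 35.6 CPM in controls, 67.1, 70.3 and 64.2 CPM with TGF-β alone and 39.8, 40.9 and 40.9 CPM with narciclasine added (log2 change −0.73, SE 0.0499, edgeR adjusted p = 1.25e-15). Tgfbr1, its type I receptor, fell by 0.16. Smad3 rose by 0.11 (edgeR adjusted p = 0.00163), and without narciclasine replicate 2 this was 0.061 and not called (edgeR adjusted p = 0.0867). Nog, an antagonist of BMPs, rose from 1.99 ± 0.411 to 5.49 ± 0.362 CPM (SD, n = 3 per group) (log2 change 1.48, SE 0.179, edgeR adjusted p = 4.49e-09), Inhbb, an activin subunit, rose by 1.02, and Grem1, another BMP antagonist, fell by 0.91.

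Most collagen genes were lower. Of 29 collagen genes 20 fell and 1 rose, 7 by at least 2-fold, with a median of −0.39. Col1a2 was at 26, 25.1 and 26.5 CPM in controls, 91.9, 85.3 and 86.2 CPM with TGF-β alone and 15.4, 15.9 and 17.6 CPM with narciclasine added (log2 change −2.43, SE 0.0568, edgeR adjusted p = 5.87e-31), with narciclasine lower than in control cells. Col1a1, the other chain of collagen I (ENSMUSG00000001506, GRCm38 chromosome 11, 94936224 to 94953042, plus strand), was at 34.8, 34.4 and 36.5 CPM in controls, 209.1, 217.9 and 192.6 CPM with TGF-β alone and 74.5, 83.4 and 79.5 CPM with narciclasine added (log2 change −1.39, SE 0.0426, edgeR adjusted p = 5.33e-22), lower with narciclasine and still above control. Col3a1 measured 12.4, 12.4 and 13.6 CPM with TGF-β alone and 6.35, 5.94 and 7.33 CPM with narciclasine added (log2 change −0.97, SE 0.107, edgeR adjusted p = 5.48e-10). Col4a1, of basement membrane, measured 1702, 1818 and 1626 CPM with TGF-β alone and 1705, 1845 and 1766 CPM with narciclasine added, with overlapping ranges (log2 change 0.047, SE 0.0409, edgeR adjusted p = 0.369), although it was called at 0.08 without TGF-β replicate 2 (edgeR adjusted p = 0.012). Col8a1 and Col15a1 fell by 1.43 and 1.51. Fibroblast markers were lower beside them, as given above, and their part in the collagen values was not tested.

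Matrix glycoproteins, the enzymes that process collagen and the proteases fell too. Among 54 glycoproteins 34 fell and 9 rose, at a median of −0.29. Fn1, fibronectin, was at 3239, 3158 and 3288 CPM in controls, 16432, 17065 and 15945 CPM with TGF-β alone and 13153, 13948 and 13218 CPM with narciclasine added (log2 change −0.29, SE 0.0246, edgeR adjusted p = 1.24e-09), a small fall that left it far above control. Tnc, tenascin C, was at 638.7, 608.1 and 637.8 CPM in controls, 3375, 3457 and 3304 CPM with TGF-β alone and 2257, 2332 and 2244 CPM with narciclasine added (log2 change −0.57, SE 0.0222, edgeR adjusted p = 2.11e-23). Sparcl1 measured 12.1, 13.1 and 13.1 CPM with TGF-β alone and 1.07, 2.22 and 1.05 CPM with narciclasine added (log2 change −3.15, SE 0.176, edgeR adjusted p = 2.2e-16), and Emilin1, an elastic fibre protein, fell by 2.48. Of 34 collagen processing genes 20 fell and 5 rose. Lox, lysyl oxidase, measured 351.3, 350.6 and 349.0 CPM with TGF-β alone and 207.8, 195.0 and 195.3 CPM with narciclasine added (log2 change −0.81, SE 0.0287, edgeR adjusted p = 8.77e-25), and Serpinh1, the collagen chaperone HSP47, fell by 0.17. Of 33 metalloproteinases and their inhibitors 23 fell and 3 rose, 10 by at least 2-fold, at a median of −0.42. Mmp13, a collagenase, was at 0.626, 0.564 and 1.39 CPM in controls, 6.67, 6.77 and 6.94 CPM with TGF-β alone and 0.984, 0.972 and 1.16 CPM with narciclasine added (log2 change −2.71, SE 0.213, edgeR adjusted p = 6.65e-14). Mmp9, a gelatinase, was at 20.2, 18.5 and 21.8 CPM in controls, 281.0, 289.8 and 274.0 CPM with TGF-β alone and 99.9, 108.6 and 108.5 CPM with narciclasine added (log2 change −1.42, SE 0.0366, edgeR adjusted p = 1.09e-27). Adamts4, an aggrecanase, was at 8.65, 7.74 and 9.56 CPM in controls, 104.2, 110.4 and 106.3 CPM with TGF-β alone and 36.1, 37.4 and 35 CPM with narciclasine added (log2 change −1.56, SE 0.0489, edgeR adjusted p = 1.23e-26), and the inhibitor Timp1 fell by 0.84.

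**Figure D4:**
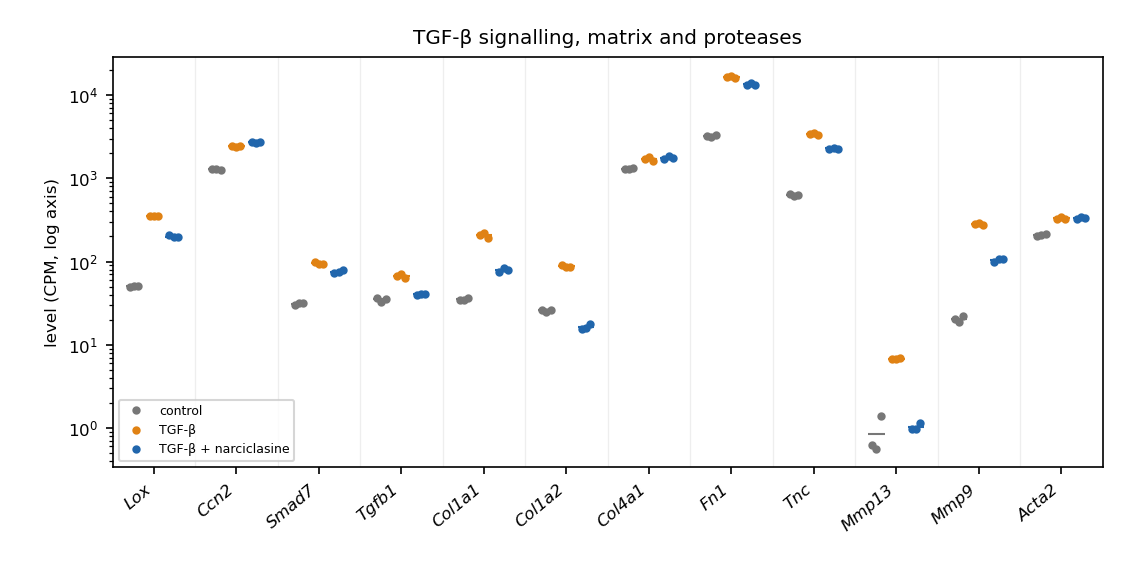
Levels of 12 genes of TGF-β signalling, matrix and proteases in each library, in CPM on a log axis, with 1 point per library (control grey, TGF-β orange, TGF-β with narciclasine blue) and a bar at the group mean. Col1a2, Mmp13 and Mmp9 are clearly lower with narciclasine, whereas Acta2 and Col4a1 overlap between the TGF-β groups.

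Of 26 genes of the plasminogen system and coagulation 19 fell and 2 rose. Plat, the tissue plasminogen activator, was at 241.7, 247.8 and 246.6 CPM in controls, 114.1, 108.1 and 112.3 CPM with TGF-β alone and 44.8, 43.5 and 43 CPM with narciclasine added (log2 change −1.35, SE 0.038, edgeR adjusted p = 3.35e-28), lower with TGF-β and lower again with narciclasine. Plau, urokinase, fell by 0.20. Among 32 integrins and adhesion molecules 22 fell and 2 rose, at a median of −0.46. Vcam1, which binds leukocytes, was at 30.0, 30.4 and 32.2 CPM in controls, 74.3, 79.3 and 77.3 CPM with TGF-β alone and 28.6, 31 and 33.1 CPM with narciclasine added (log2 change −1.32, SE 0.0525, edgeR adjusted p = 4.04e-23), and Icam1, with the same role, was at 76.9, 77.6 and 76.9 CPM in controls, 150.3, 152.1 and 150.0 CPM with TGF-β alone and 66.5, 68.2 and 65.7 CPM with narciclasine added (log2 change −1.17, SE 0.0356, edgeR adjusted p = 4.05e-27). With narciclasine the Vcam1 libraries overlapped the control range and those of Icam1 lay below it. Itgb6, the integrin chain that activates latent TGF-β, fell by 0.21. Of 45 growth factors 21 fell and 9 rose. Pdgfa measured 208.5, 222.0 and 212.8 CPM with TGF-β alone and 113.0, 116.0 and 110.0 CPM with narciclasine added (log2 change −0.92, SE 0.0335, edgeR adjusted p = 1.91e-24), and Pdgfb and Vegfa fell by 0.22 and 0.34.

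Contractile genes mostly rose. Of 42 tested 28 rose and 7 fell, at a median of 0.20, with none past 2-fold. Acta2, smooth muscle actin and the usual marker of myofibroblasts, was at 205.2, 205.5 and 216.2 CPM in controls, 323.4, 338.4 and 327.1 CPM with TGF-β alone and 324.4, 341.3 and 330.6 CPM with narciclasine added, with overlap of the TGF-β groups (log2 change 0.011, SE 0.0276, edgeR adjusted p = 0.763). Tagln, transgelin, rose by 0.087 (edgeR adjusted p = 0.00453), and without TGF-β replicate 2 this was 0.06 and not called (edgeR adjusted p = 0.058). Srf, the transcription factor that drives these genes, rose from 45.1 ± 2.93 to 73.6 ± 4.48 CPM (SD, n = 3 per group) (log2 change 0.70, SE 0.0508, edgeR adjusted p = 5.32e-15), and Fhl1, a LIM protein, rose by 0.74. Des, desmin, fell by 0.76. Of 27 factors of epithelial to mesenchymal change 4 rose and 6 fell (37.0% changed). Cdh2, N-cadherin, was at 234.2, 239.4 and 246.1 CPM in controls, 143.1, 152.8 and 144.0 CPM with TGF-β alone and 224.9, 230.6 and 212.6 CPM with narciclasine added (log2 change 0.61, SE 0.0326, edgeR adjusted p = 9.1e-19). Zeb1 measured 30.2, 30.4 and 30.6 CPM with TGF-β alone and 33.6, 31.6 and 29.8 CPM with narciclasine added (log2 change 0.063, SE 0.0603, edgeR adjusted p = 0.398) and Snai1 was near 1 CPM and not called (edgeR adjusted p = 0.155).

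Epithelial genes showed small rises in keratins and mixed moves elsewhere. Cdh1, E-cadherin, was at 815.1, 809.0 and 822.6 CPM in controls, 1116, 1135 and 1102 CPM with TGF-β alone and 1115, 1117 and 1108 CPM with narciclasine added, with overlap of the TGF-β groups (log2 change −0.005, SE 0.0211, edgeR adjusted p = 0.854). Of 19 keratins and cornified envelope genes 11 rose and 3 fell. Krt8 measured 2573, 2603 and 2452 CPM with TGF-β alone and 3082, 3134 and 3189 CPM with narciclasine added (log2 change 0.30, SE 0.0217, edgeR adjusted p = 4.87e-15), Krt18 and Krt19 rose by 0.22 and 0.21, and Krt20 fell by 0.54. Sprr1a, of the cornified envelope, was at 204.9, 183.7 and 206.6 CPM in controls, 12, 11.1 and 9.8 CPM with TGF-β alone and 21.9, 23.7 and 26.6 CPM with narciclasine added (log2 change 1.13, SE 0.0954, edgeR adjusted p = 9.05e-09). Of 44 junction genes 18 rose and 14 fell. Tjp1, the scaffold ZO-1, rose by 0.22 and Pkp2, a desmosomal plakophilin, by 0.55. Cldn2, the pore-forming claudin of the proximal tubule, was at 15.5, 14.7 and 18.2 CPM in controls, 0.502, 1.03 and 1.13 CPM with TGF-β alone and 1.83, 1.67 and 1.76 CPM with narciclasine added (log2 change 1.0, SE 0.255, edgeR adjusted p = 0.00108), far under control in both TGF-β groups.

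Among tubular transport genes the receptor megalin rose above its control level. Lrp2, which encodes it and through which the proximal tubule takes up filtered protein, was at 108.3, 102.6 and 103.5 CPM in controls, 60.7, 61.9 and 60.7 CPM with TGF-β alone and 133.9, 126.6 and 128.8 CPM with narciclasine added (log2 change 1.09, SE 0.0379, edgeR adjusted p = 5.7e-25). Its 3 libraries with narciclasine were above all others, control included. Cubn, its partner cubilin, measured 11, 9.92 and 11.3 CPM with TGF-β alone and 10.8, 10.8 and 10.3 CPM with narciclasine added with overlapping ranges (log2 change −0.021, SE 0.0975, edgeR adjusted p = 0.875). Hnf4a, the transcription factor of proximal tubule identity, rose by 0.64 with overlapping ranges, at 3.06, 1.57 and 1.95 CPM with TGF-β alone and 3.04, 3.78 and 3.75 CPM with narciclasine added (edgeR adjusted p = 0.00732). Without TGF-β replicate 2 its change was 0.47 and not called (edgeR adjusted p = 0.0542). Cyp4a12b, an ω-hydroxylase of fatty acids with close copies among which reads may be split, rose by 1.97. The amino acid transporter Slc6a18 rose by 1.51, from a mean of 0.42 to 1.23 CPM, far under its control mean of 9.47 CPM. The phosphate transporters Slc34a2 and Slc17a1 fell by 1.79 and 1.48. Their means were 2.26 and 2.08 CPM with TGF-β alone and 0.661 and 0.751 CPM with narciclasine added, against 16.9 and 9.12 CPM in controls. Across 62 transport genes tested 21 fell and 11 rose (51.6% changed). Of the 13 tested markers of the proximal tubule 3 rose, 1 fell and 9 were not called, at a median of −0.021. This is a share of 30.8% changed beside 52.3% over all genes. Of 43 genes of injury and repair 25 fell and 13 rose. Spp1, osteopontin, was at 7221, 7362 and 7394 CPM in controls, 3723, 3736 and 3817 CPM with TGF-β alone and 1800.4, 1829 and 1775 CPM with narciclasine added (log2 change −1.06, SE 0.0196, edgeR adjusted p = 1.41e-34). Havcr1, the injury molecule KIM-1, was at 1102, 1103 and 1139.9 CPM in controls, 284.3, 291.5 and 311.0 CPM with TGF-β alone and 343.4, 325.8 and 325.5 CPM with narciclasine added (log2 change 0.17, SE 0.0289, edgeR adjusted p = 1.19e-05), low with TGF-β and slightly higher with narciclasine. Sox9, a repair factor, was at 44.4, 42.8 and 44.6 CPM in controls, 72.3, 66.8 and 70.5 CPM with TGF-β alone and 101.0, 105.7 and 109.4 CPM with narciclasine added (log2 change 0.59, SE 0.0414, edgeR adjusted p = 2.69e-15), and Cp, ceruloplasmin, fell by 1.44.

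More metabolic genes fell than rose, most of them by less than 2-fold. Of 55 genes of cholesterol and lipid synthesis 38 fell and 4 rose, none by 2-fold, at a median of −0.18. Insig1, the sterol sensor, measured 188.8, 191.2 and 186.6 CPM with TGF-β alone and 110.1, 104.1 and 101.2 CPM with narciclasine added (log2 change −0.84, SE 0.0338, edgeR adjusted p = 5.64e-23). Scd1, the stearoyl-CoA desaturase, fell by 0.72. Of 61 genes of the NRF2 and antioxidant response 38 fell and 7 rose. Hmox1, heme oxygenase, measured 191.7, 191.6 and 186.4 CPM with TGF-β alone and 121.6, 128.7 and 129.7 CPM with narciclasine added (log2 change −0.59, SE 0.032, edgeR adjusted p = 1.26e-18), Gclm fell by 0.28 and Osgin1 rose by 0.75. Of 48 genes of glycolysis and hypoxia 23 fell and 7 rose, with Hk2 lower by 0.42 and Hif1a by 0.18. The metallothioneins Mt1 and Mt2 fell by 0.93 and 1.30, and Tfrc, the transferrin receptor, measured 251.2, 253.6 and 248.3 CPM in controls, 122.2, 126.3 and 128.9 CPM with TGF-β alone and 190.8, 187.2 and 181.4 CPM with narciclasine added (log2 change 0.57, SE 0.031, edgeR adjusted p = 1.07e-18).

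The mitochondrial genome and the nuclear genes of the respiratory chain differed. Of 13 genes encoded by mitochondria 10 fell and 3 were not called, at a median of −0.47. mt-Co1, a subunit of cytochrome oxidase, was at 17013, 16838 and 17967 CPM in controls, 22212, 22645 and 23212 CPM with TGF-β alone and 16549, 16608 and 16150.3 CPM with narciclasine added (log2 change −0.47, SE 0.0212, edgeR adjusted p = 3.65e-18). mt-Nd5 was at 4188, 4309 and 4419 CPM with TGF-β alone and 2552, 2638 and 2486 CPM with narciclasine added (log2 change −0.75, SE 0.0488, edgeR adjusted p = 7.24e-06). mt-Nd6 lies on the other strand, and its reads cannot be told from those of the opposite strand unless counting used strand, which the sources used here do not state. Of 73 nuclear respiratory chain genes 17 rose and 8 fell (34.2% changed). Of 55 genes of fatty acid oxidation 20 fell and 5 rose (45.5% changed). Cpt1a fell by 0.33, and Ppara was under 1 CPM and not called (edgeR adjusted p = 0.28).

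More genes of autophagy and lysosomes fell than rose, and those of the proteasome split. Of 65 genes of autophagy and lysosomes 41 fell and 8 rose, at a median of −0.18. Ctsl, a cathepsin, was at 320.9, 332.1 and 322.0 CPM in controls, 766.7, 767.0 and 777.5 CPM with TGF-β alone and 413.6, 416.0 and 429.6 CPM with narciclasine added (log2 change −0.88, SE 0.0239, edgeR adjusted p = 1.13e-28). Ctsc and Ctsd fell by 0.92 and 0.31, and Sqstm1, the autophagy adaptor p62, fell by 0.078, a call that ended with libraries scaled by total counts (log2 change −0.05, edgeR adjusted p = 0.0657). Tfeb, a transcription factor of lysosomal genes, measured 4.25, 4.84 and 3.36 CPM with TGF-β alone and 5.05, 5.19 and 6.28 CPM with narciclasine added and rose by 0.42 (SE 0.147, edgeR adjusted p = 0.0157). Its change was 0.27 without TGF-β replicate 3 (edgeR adjusted p = 0.157) and 0.32 without narciclasine replicate 3 (edgeR adjusted p = 0.105), not called in either case. Of 46 proteasome genes 24 rose and 11 fell. Psmg1, an assembly factor, rose by 0.52, and Psme1, of the activator that interferon induces, fell by 0.37. Of 21 clock genes 6 rose and 2 fell (38.1% changed). Nr1d1, the repressor REV-ERBα, was at 5.52, 6.54 and 7.08 CPM in controls, 6.99, 7.86 and 7.35 CPM with TGF-β alone and 15.8, 17.8 and 14.3 CPM with narciclasine added (log2 change 1.12, SE 0.106, edgeR adjusted p = 1.32e-11). Of 48 Wnt and Notch genes 14 rose and 11 fell, a share of 52.1% changed beside 52.3% over all genes. Notch1 was at 56, 48.8 and 54 CPM in controls, 32.1, 33.3 and 28.9 CPM with TGF-β alone and 58.3, 53.2 and 52.7 CPM with narciclasine added (log2 change 0.81, SE 0.0592, edgeR adjusted p = 5.11e-14), its target Hes1 rose by 0.50, and the ligand Dll4 fell by 0.94.

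**Figure D5:**
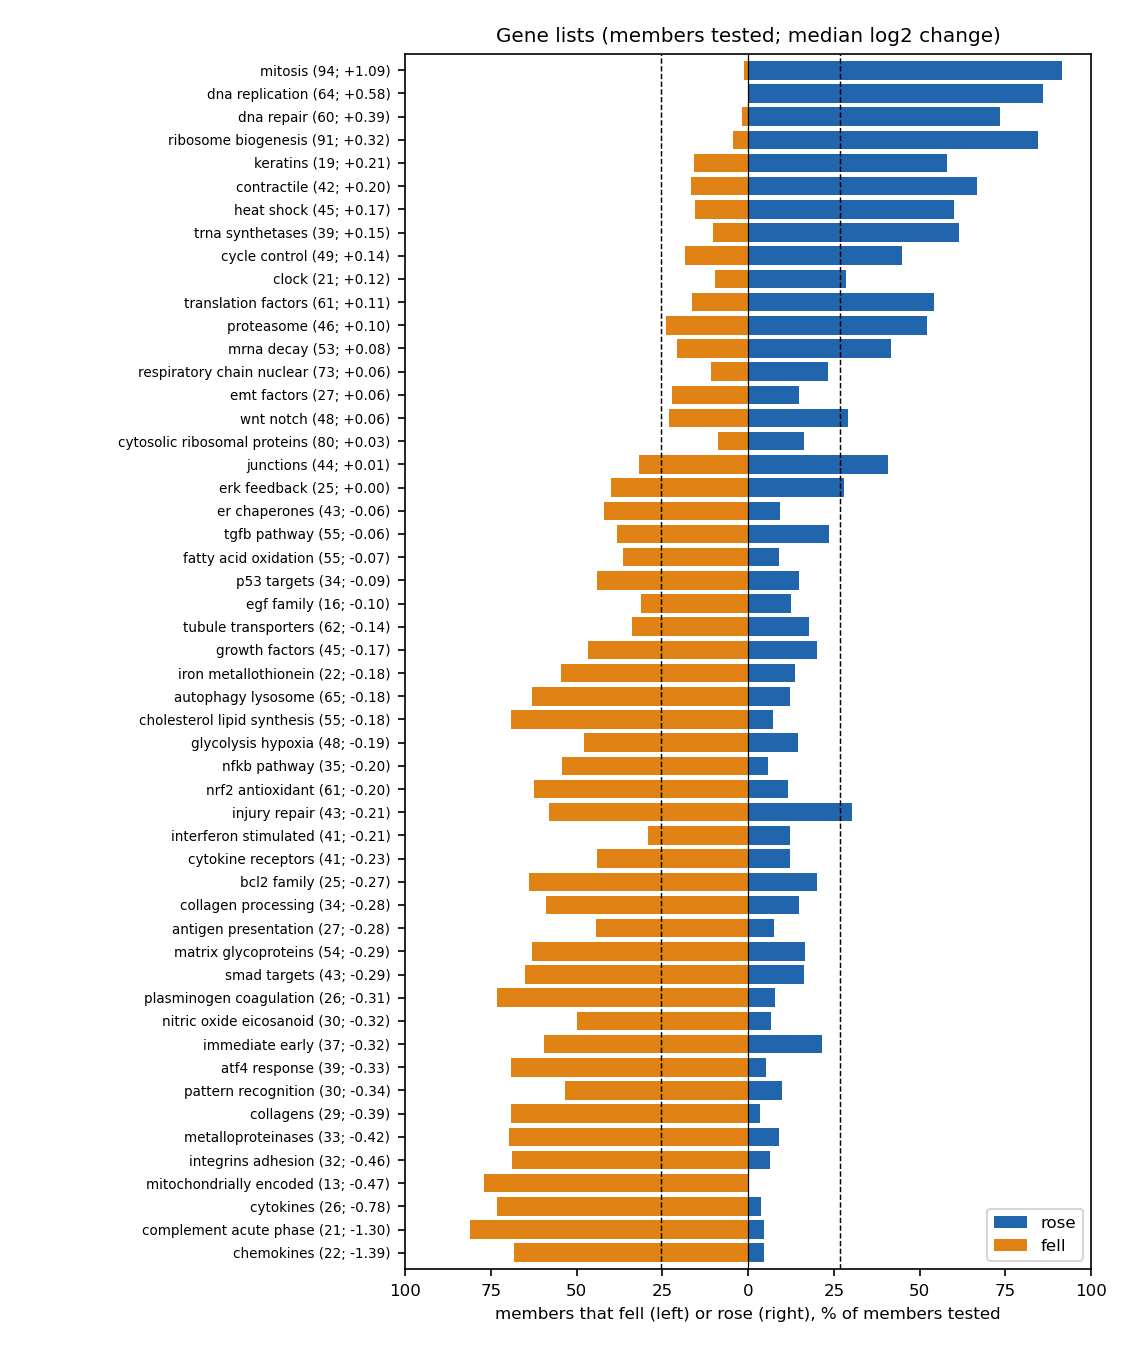
Share of tested members that rose (blue, to the right) or fell (orange, to the left) at an adjusted p under 0.05 in each of 52 gene lists, in percent, sorted by median log2 change, with the number tested and the median beside each name. Chemokines have the lowest median (−1.39) and mitosis genes the highest (1.09), with the 7 marker lists not drawn. The dashed lines mark the shares over all genes, 26.8% higher and 25.5% lower.

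The largest changes were ranked among genes that reached 5 CPM in either group and whose libraries did not overlap, 15 in each direction. Clone-style symbols and symbols with more than 1 entry were left out of the ranking. The falls were Cxcl2, Cxcl1, Csf2, Tnf, Nos2, Mmp12, Cd83, Sparcl1, Ccl7, Lyz2, Cxcl5, Mmp13, G0s2, Nfkbiz and Ccl20. G0s2, an inhibitor of triglyceride lipase, measured 6.17, 5.08 and 6.13 CPM with TGF-β alone and 0.76, 0.918 and 1.05 CPM with narciclasine added (log2 change −2.69, SE 0.225, edgeR adjusted p = 3.91e-13). The rises were Kif18b, Cyp4a12b, Ndc80, EPPK1, Prim1, Cdc20, Dlgap5, Iqgap3, Fbxo5, Plk1, Clspn, Ttk, Mki67, Knl1 and Kif2c, and all but Cyp4a12b and EPPK1 are in the lists for replication, mitosis or cycle control. EPPK1, the cytoskeletal linker epiplakin, is written in capitals in the deposited table and was at 37.2, 35.9 and 35.8 CPM in controls, 17.8, 16.3 and 16.7 CPM with TGF-β alone and 61.9, 62.2 and 63.4 CPM with narciclasine added (log2 change 1.88, SE 0.0558, edgeR adjusted p = 2.02e-27). Its libraries with narciclasine stood above control as well. Genes at 0 in all libraries with narciclasine were sought, with at least 20 counts in the TGF-β libraries and clone-style symbols left out. Only Snap25 met this, but with TGF-β alone it had counts in 1 library only and was not called (edgeR adjusted p = 0.415). Gm20431, chosen after its values were seen because it had the largest fitted rise, had no count in the control and TGF-β libraries and 1.25, 2.54 and 1.82 CPM in those with narciclasine. The annotation places it over Ube2v1 and Tmem189 on the same strand, and counts may be split among the 3 genes.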

How the data were processed

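RNA-seq read counts per gene for 9 TEC libraries were analysed as whole-number counts, as deposited by the authors with no normalization. HISAT2 2.1.0, featureCounts, DESeq2 and the mouse build mm10 are named, per the submitters' processing notes, with no role or order. For the annotation release and the use of strand, the sources used here give nothing. From the counts, genes were kept by edgeR's filterByExpr by group (13244 of 22322), scaled by TMM and tested with edgeR 4.0.16 (limma 3.58.1, R 4.3.3) in 1 robust quasi-likelihood fit of all 9 libraries. The control libraries add to the estimate of the spread, and p-values were adjusted by Benjamini-Hochberg. Changed means an adjusted p under 0.05. SE is the size of the log2 change divided by the square root of the F statistic of its quasi-likelihood test. CPM values are on the TMM scale and are not divided by gene length, so levels are compared between libraries and not between genes.

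The genes named were drawn from the 15 with the largest changes each way (at least 5 CPM in the higher group, no overlap of libraries), anchor genes of each gene list, up to 4 called members per list with at least 1 CPM, and genes at 0 in 1 group with at least 20 counts in the other. Clone-style symbols were left out of the first and the last of these sources, and symbols with more than 1 entry out of the first. The comparison and the gene lists were chosen with earlier results of these data known. Lists were matched by symbol, and 20 symbols with more than 1 entry were left out of them. Gene coordinates are from the GENCODE mouse annotation of GRCm38, the assembly of mm10, and promoters from RefSeq on GRCm38.p6. On simulated data of the same comparison with 13135 genes fitted, the fit recovered 49 of 50, 44 of 50, 44 of 50 and 50 of 50 genes set to log2 changes of −1, −0.5, 0.5 and 1, and called 14 of 12935 unchanged genes. Changes were set only in genes with an expected count above 50, and nearly all other genes were left unchanged. The simulation therefore does not cover genes of lower counts, or data in which 52.3% of genes change. Alternatives were DESeq2 1.42.0, its size factors, total counts, other filters, the 6 libraries with TGF-β, a replicate block and leaving out each library. The rat fibroblast libraries of the series were not used here. Values of a few genes of these lists are not reported here.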

Additional observations from a re-analysis of the deposited data

How the results depend on the processing

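The count of 6921 changed genes ranged from 6114 with DESeq2 to 7007 with libraries scaled by total counts, and from 6296 to 6863 when 1 library was left out. Falls of at least 2-fold ranged from 302 genes, with 1 CPM required in all libraries of a group, to 496 with no filter. All 80 recomputed counts over all genes were within 1.5 times the values reported. Of the 209 genes named with values, 193 kept direction and call in each of the 16 alternatives in which they were tested. The 209 genes gave 3338 recomputed values, since not every gene was tested under every alternative. The labels do not say what a replicate number shares. Same-numbered libraries of the TGF-β groups deviated from their group means with correlations of −0.091, 0.273 and −0.087 over 9046 genes. For differently numbered libraries of these groups the correlations ran from −0.144 to 0.245. Deviations within a group of 3 offset one another, so these values cannot decide whether the libraries were paired. With the replicate number as a block 6766 genes changed, and the block altered no call of a named gene and no list count by over 1.5 times.

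The genes that reversed were near 0 and not called. With total counts Asns was 0.022, Cdh1 0.025, Cubn 0.009 and Rpl3 0.015 on the log2 scale. With 1 CPM required Acta2 was −0.003 and Npm1 −0.001. Leaving out 1 library gave ranges of −0.018 to 0.020 for Acta2, −0.079 to 0.007 for Cubn, −0.031 to 0.046 for Npm1 and −0.002 to 0.052 for Rela. The cause was not tested. Of 944 recomputed list medians 43 moved by more than their spread, 13 of them with total counts.

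With 3 libraries per group, precision rests on the spread between these libraries, and genes under about 1 CPM carry wide errors. Stranded counting, the animals behind the replicates and narciclasine without TGF-β are outside what these values can show.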
